A study of Mus musculus with 46 samples.

Results

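The change between day 3 and day 7 after cyclophosphamide (CY) was measured in whole AB1-HA tumors, by setting the 10 tumors titled CT7_1 to CT7_10 and labelled Day+7 against the 10 titled CT3_1 to CT3_10 and labelled Day+3, 20 of the 46 tumors of the series. AB1-HA is a mouse mesothelioma line carrying influenza hemagglutinin as a model antigen, here grown under the skin on both flanks of male BALB/c mice aged 8-10 weeks. The mice received 200 mg/kg CY on day 10, and 1 tumor per mouse was excised on day 13 (Day+3) or day 17 (Day+7), while the other tumor showed whether the mouse was a complete responder (CR) or PR. PR is a partial responder in the design text and a progressor in the study's report, and each time point held 5 CR and 5 PR tumors, from different mice. The 26 tumors excised on day 9, before CY (Day-1), are given as values with no test.

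CR and PR tumors were weighted equally at each time, so that neither response group weighs more in the comparison. All 20 tumors had been exposed to CY, and no untreated tumor of day 13 or day 17 was analysed here. Time after CY and tumor age therefore cannot be told apart, nor can any handling that differed between the days of excision. The model is 1 transplanted cell line in an immunocompetent host, and each library mixes RNA of tumor, immune, vessel and connective tissue cells. In such bulk RNA, fewer cells of a type and less RNA per cell cannot be told apart.

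CY is a prodrug that the liver activates to an alkylating mustard. The mustard crosslinks DNA strands, which stops or kills dividing cells, in the tumor and also among lymphocytes and bone marrow precursors. Damaged cells stabilise the transcription factor p53, which switches on genes that halt the cell cycle or start apoptosis. In the days after a single dose, surviving tumor cells can resume growth and blood leukocytes are rebuilt from marrow, monocytes and neutrophils early and lymphocytes later.

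The counts analysed end within the gene names beginning with P, so totals, CPM, shares of genes and the gene lists cover only names up to there. Over these names, total estimated counts ranged from 15412744 to 18748688 per tumor at day 3 and from 16047930 to 19446596 at day 7. Levels are given as CPM, counts scaled to a common library total with TMM factors, and are not divided by transcript length, so they compare tumors and not genes. In edgeR (quasi-likelihood, 12872 genes tested), at a Benjamini-Hochberg false discovery rate (FDR) under 0.1, 5006 genes were higher at day 7 (38.9%) and 4994 were lower (38.8%), together 77.7%. With a further demand of at least 2-fold, added after the data were seen, 2214 were higher (17.2%) and 1580 lower (12.3%). In 2397 genes (18.6%) every day 7 tumor lay above every day 3 tumor, and in 2487 genes (19.3%) every day 7 tumor lay below. The median log2 fold change over all genes was -0.0013. A share of list members called is read against these percentages.

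The first principal component of the 20 tumors held 70.3% of the variance and placed all 10 day 3 tumors at -80.7 to -54.8 and all 10 day 7 tumors at 34.9 to 76.1. The CR tumor CT7_6 stood apart, at 34.9, where the other 9 day 7 tumors lay between 63.1 and 76.1. The composition of the libraries differed between the days, as the TMM factors show, which were 1.072 to 1.117 at day 3 and 0.882 to 0.982 at day 7. With total counts and no such factor the median of all genes was -0.26, with 3594 genes higher and 6854 lower (34.4% higher, against 50.1% with TMM), so changes under about that size depend on the scaling. The labelled cell type was checked against 11 mesothelial genes. Msln, mesothelin, was present throughout, Krt7 and Krt8 had medians of 10.0 and 12.6 CPM at day 3, and Calb2, Krt18, Krt19, Muc16, Bnc1, Lrrn4, Nkain4 and Gpm6a were at or near 0 at both times, the highest value among these 8 being 1.41 CPM.

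The 43 gene lists differed widely in direction. In list order by median, red cells, MHC class II, neutrophils, eosinophils, interferon gamma and monocytes stood at the top and DNA replication, collagens and matrix, mitosis and mesothelium at the bottom. Some members that go against the rest of their list are named beside it, a choice made after their values were seen.

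**Figure D1:**
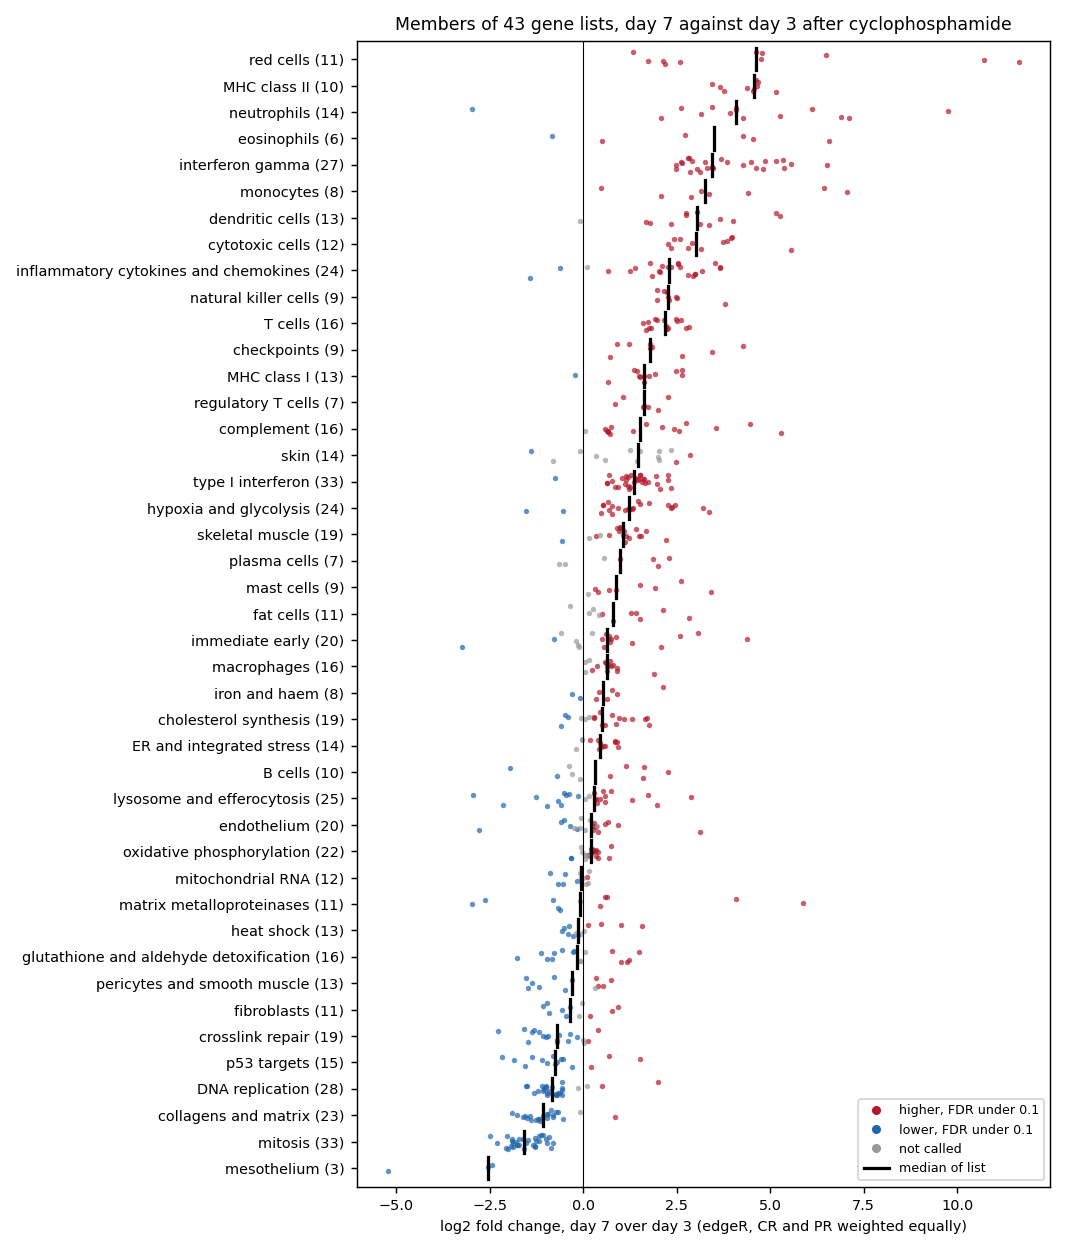
Log2 fold change of day 7 over day 3 for every tested member of the 43 lists (number tested in brackets), with red points called higher and blue points called lower at FDR under 0.1, gray points not called and a black bar at the list median. Medians ran from -2.55 for mesothelium to 4.61 for red cells.

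Genes of cell division fell. All 33 members of the mitosis list were lower at day 7, 28 of them at least 2-fold and 33 without overlap of the tumors (list median -1.59, all genes -0.0013). Their summed level was 4385 to 5467 CPM at day 3 (median 5094) and 1265 to 2119 CPM at day 7 (median 1661), against a median of 6914 CPM at Day-1. Cdk1, the kinase that drives cells into mitosis, measured 269 to 319 CPM at day 3 (median 286) and 64.1 to 88.5 CPM at day 7 (median 76.7), 3.76-fold lower at day 7 (log2 fold change -1.91 ± 0.06 SE, edgeR FDR = 1.28e-15). The day 7 tumors were all below the day 3 tumors. Anln, the actin-binding protein anillin of the cleavage furrow, ranged over 186 to 254 CPM at day 3 (median 238) and 35.3 to 53.3 CPM at day 7 (median 37.1), a log2 fold change of -2.51 ± 0.09 (SE, edgeR FDR = 3.89e-15). Cdca3, which helps the cell enter mitosis, ranged over 169 to 201 CPM at day 3 (median 187) and 37.6 to 51.9 CPM at day 7 (median 43.2), a log2 fold change of -2.05 ± 0.07 (SE, edgeR FDR = 1.59e-15). Mki67, the antigen used to count dividing cells, changed less, from a median of 469 to 259 CPM (log2 fold change -0.81 ± 0.10 SE, edgeR FDR = 3.53e-07), after a Day-1 median of 1303 CPM.

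The direction from Day-1 to day 3 was not alike among these genes. Cdk1 was at a median of 223 CPM at Day-1 and 286 CPM at day 3, while Mki67 stood at 1303 and then 469 CPM, and Anln at 435 and then 238 CPM. From day 3 to day 7 all of them fell. Ckap2, a microtubule-associated protein of the spindle, fell from a median of 236 to 24.7 CPM (log2 fold change -3.19 ± 0.08 SE, edgeR FDR = 2.16e-16). Gtse1, a microtubule protein that also restrains p53, fell from a median of 134 to 24.5 CPM (log2 fold change -2.46 ± 0.07 SE, edgeR FDR = 2.25e-16). Mybl1, a transcription factor of the Myb family, fell from a median of 42.4 to 7.23 CPM (log2 fold change -2.5 ± 0.06 SE, edgeR FDR = 1.93e-16). In each of these genes the groups did not overlap. Cks1b, a small subunit of Cdk complexes, Cenpt, a centromere protein, and Diaph3, a formin of the actin cytoskeleton, were among the 15 genes with the smallest p in this direction too, with log2 fold changes of -1.67, -1.32 and -2.08. Ect2 and Kif2c, which act in cytokinesis and at kinetochores, fell by 1.89 and 1.93 on the log2 scale.

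Promoters of mitotic genes share short elements, and those of the mitosis members are shown because the whole list moved together. RefSeq gave a start-site window on GRCm38.p6, 250 bases before to 50 after the start, for 28 of the 33 members. The cell cycle homology region core, TTTGAA or its reverse complement TTCAAA, was found in 21 of these 28 (75%), against 17.9% of 32851 windows of that length and 16.2% of the 8174 tested genes with a window. CCAAT or its reverse complement ATTGG, the element bound by NF-Y, was also found in 21 of 28 (75%), against 37.4% of windows and 42.3% of tested genes. Windows of 2 members are printed 5′ to 3′ along the gene, with the cell cycle homology core in capitals, for Cdk1 (chr10:69352863-69353162, minus strand) and Anln (chr9:22389157-22389456, minus strand).
Cdk1: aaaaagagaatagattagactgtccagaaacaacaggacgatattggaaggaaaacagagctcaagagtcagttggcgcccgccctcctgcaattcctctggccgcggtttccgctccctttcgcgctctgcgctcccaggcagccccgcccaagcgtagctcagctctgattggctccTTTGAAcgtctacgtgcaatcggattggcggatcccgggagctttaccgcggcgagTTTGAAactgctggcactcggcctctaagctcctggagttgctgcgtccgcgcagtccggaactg
Anln: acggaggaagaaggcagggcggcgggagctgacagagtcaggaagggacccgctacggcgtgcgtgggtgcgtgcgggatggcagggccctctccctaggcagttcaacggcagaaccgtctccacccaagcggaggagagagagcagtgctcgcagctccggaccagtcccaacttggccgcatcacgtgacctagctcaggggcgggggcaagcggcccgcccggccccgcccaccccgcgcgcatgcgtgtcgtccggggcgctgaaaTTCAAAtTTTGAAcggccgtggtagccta
Both windows hold 2 copies of the core, and in Anln they lie on opposite strands, 1 base apart, downstream of the start site. A match is a description of letters and not a measured binding site.

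DNA replication genes fell less. Of 28 members 24 were lower and 2 higher (median -0.83), 9 of the lower ones at least 2-fold. Dtl, an adaptor that marks licensing factors for destruction in S phase, ranged over 64.9 to 79.8 CPM at day 3 (median 68.4) and 20.04 to 28.3 CPM at day 7 (median 24.3), a log2 fold change of -1.52 ± 0.06 (SE, edgeR FDR = 9.11e-15). Cdc45, a part of the replicative helicase, ranged over 58.5 to 74.9 CPM at day 3 (median 69.2) and 23 to 34 CPM at day 7 (median 29.4), a log2 fold change of -1.20 ± 0.06 (SE, edgeR FDR = 4.48e-13). Exo1, an exonuclease of repair and replication, and Chaf1a, a chaperone that loads histones on new DNA, fell from a median of 28.7 to 9.83 CPM and from a median of 97.4 to 47.7 CPM. None of these 4 genes overlapped between the days. The 2 members that rose were E2f2, a transcription factor that is abundant in blood precursors, from a median of 14.3 to 52.9 CPM (log2 fold change 1.99 ± 0.14 SE, edgeR FDR = 1.2e-10), and Ccne1, cyclin E1, with a log2 fold change of 0.49.

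Targets of p53 were lower at day 7. Their sum was still above its Day-1 level, but single members differed in this. Much of the excess lay in 1 gene, Cdkn1a, with medians of 113 CPM at Day-1 and 597 CPM at day 7. Of 15 members 12 fell and 3 rose (median -0.75), and the summed level was 3206 to 3621 CPM at day 3 (median 3479.7) and 1909 to 2261 CPM at day 7 (median 2059), against a Day-1 median of 1461 CPM. Ccng1, cyclin G1, a direct p53 target, measured 836 to 1008 CPM at day 3 (median 957) and 284 to 347 CPM at day 7 (median 315), a log2 fold change of -1.55 ± 0.05 (SE, edgeR FDR = 1.42e-15). Its Day-1 median was 467 CPM, above every day 7 tumor. Mdm2, the ligase that degrades p53, ranged over 302 to 424 CPM at day 3 (median 339) and 156 to 191 CPM at day 7 (median 177), a log2 fold change of -0.98 ± 0.06 (SE, edgeR FDR = 6.48e-12). Cdkn1a, the cell cycle inhibitor p21, ranged over 663 to 787 CPM at day 3 (median 745) and 512 to 681 CPM at day 7 (median 597), a log2 fold change of -0.31 ± 0.06 (SE, edgeR FDR = 4.09e-05). Cdkn1a thus stayed far above its Day-1 median of 113 CPM, its day 3 and day 7 tumors overlapped, and Mdm2 at day 7 was nearer to its Day-1 median of 150.0 CPM than to day 3. Eda2r, a death receptor of the TNF family, fell from a median of 124 to 26.2 CPM (log2 fold change -2.17 ± 0.13 SE, edgeR FDR = 7.49e-12). Every day 7 tumor was below its Day-1 median of 56.7 CPM. The members that rose were Fas, the death receptor of the same family that T cells and other leukocytes also carry, from a median of 32.8 to 91.3 CPM (log2 fold change 1.52 ± 0.07 SE, edgeR FDR = 1.41e-13), Btg2, an antiproliferative factor (0.70), and Apaf1, the core of the apoptosome (0.19 with TMM, -0.06 with total counts).

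Genes that repair DNA crosslinks fell beside them. Of 19 members 15 were lower and 2 higher (median -0.70), and all 10 day 7 tumors lay below all day 3 tumors in the summed level, 715 to 786 CPM at day 3 (median 753) and 369 to 416 CPM at day 7 (median 389.8). Ercc1, a nuclease subunit that cuts beside crosslinks, measured 191 to 232 CPM at day 3 (median 198) and 33.6 to 86.5 CPM at day 7 (median 36.6), a log2 fold change of -2.28 ± 0.14 (SE, edgeR FDR = 7.31e-12). Bard1, partner of a ubiquitin ligase in recombination, and Fancl, the ligase of the Fanconi pathway, fell from a median of 38.4 to 14 CPM and from a median of 46.8 to 29.4 CPM. None of the 3 genes overlapped. Fanca and Ercc4 were the members called higher, with log2 fold changes of 0.39 and 0.12, Ercc4 changing sign to -0.13 with total counts. The list of glutathione and aldehyde genes, which include enzymes that clear CY metabolites, was mixed, with 5 higher, 8 lower and 3 not called. Mgst1, a membrane glutathione transferase, rose from a median of 61.9 to 177 CPM, and Gsto1, an omega class transferase, fell from a median of 151 to 70.5 CPM.

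Some genes were high at day 3 alone. Ces2e, a carboxylesterase, was among the 5 called genes with the largest fall by fold at a mean of at least 5 CPM, and measured 19.8 to 26.8 CPM at day 3 (median 24) and 0.124 to 1.44 CPM at day 7 (median 0.387), a log2 fold change of -5.61 ± 0.21 (SE, edgeR FDR = 9.11e-15). Its Day-1 median was 0.158 CPM, so that the day 3 tumors stood above both other days. Mst1, macrophage stimulating protein, fell from a median of 29.1 to 4.48 CPM (log2 fold change -2.67 ± 0.08 SE, edgeR FDR = 6.98e-16) from a Day-1 median of 6.21 CPM. Atg9b, a lipid scramblase of autophagy, fell from a median of 369 to 15.9 CPM (log2 fold change -4.36 ± 0.19 SE, edgeR FDR = 1.17e-13) after 106 CPM at Day-1. In these 3 genes no day 7 tumor reached the lowest day 3 tumor. Hmga2, a chromatin protein of embryonic and tumor cells, fell at each step, with medians of 806, 399 and 39.7 CPM (log2 fold change -3.29 ± 0.10 SE, edgeR FDR = 7.66e-16 for day 7 over day 3). Adcy8, an adenylyl cyclase, and Glp1r, the GLP-1 receptor, had medians of 63.7 and 36.8 CPM at Day-1 and 52.5 and 50.0 CPM at day 3, and were at 2.87 and 3.12 CPM at day 7. Which cells express these genes was not measured.

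**Figure D2:**
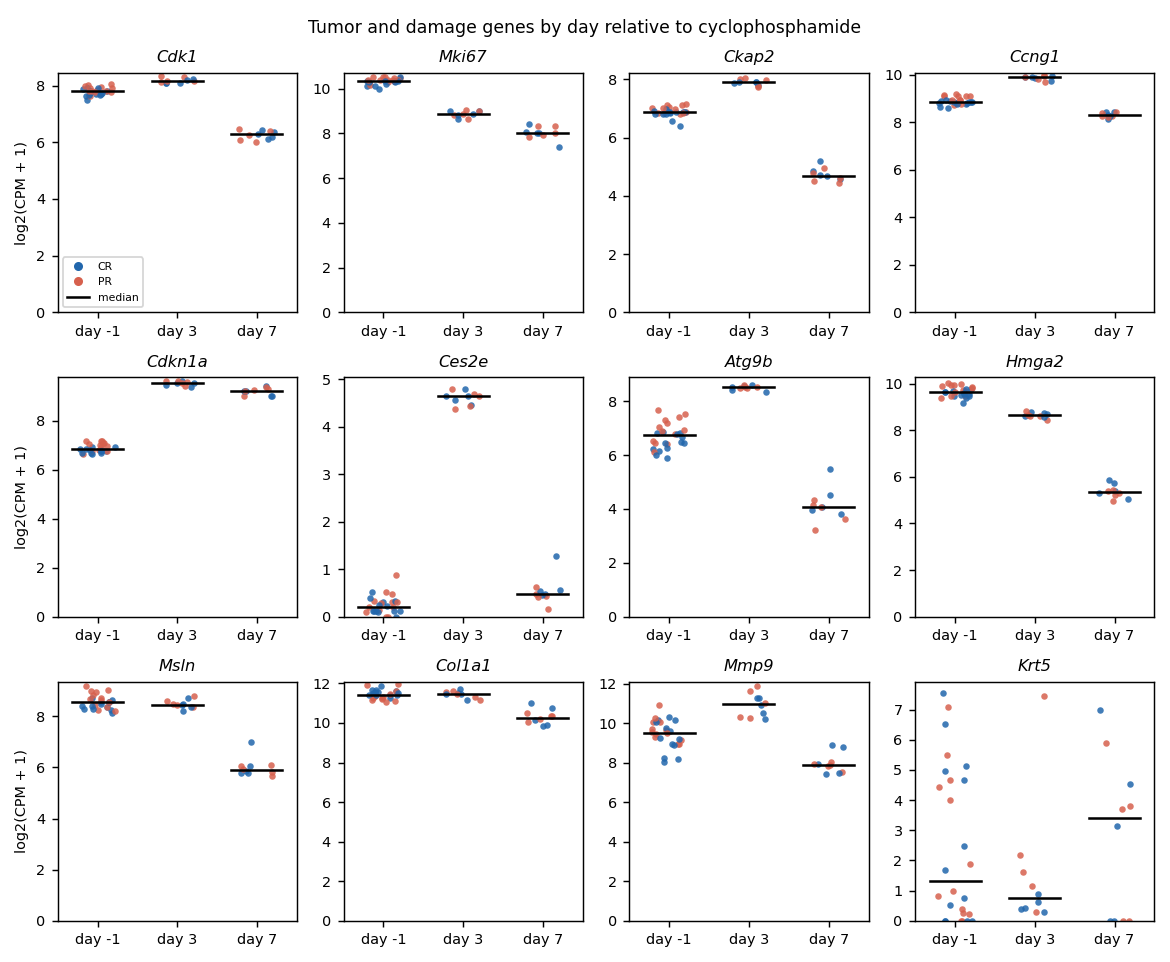
Levels of 12 genes in every tumor at Day-1, day 3 and day 7 as log2(CPM + 1), blue for CR and red for PR, with a bar at the median of the day. In Cdk1, Ckap2, Ccng1, Atg9b, Hmga2 and Msln all day 7 tumors lie below all day 3 tumors, Ces2e is raised at day 3, and Krt5 scatters in 1 day 3 and 5 day 7 tumors above 10 CPM.

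Genes of interferon gamma signaling and antigen presentation rose. Interferon gamma is secreted by T and natural killer cells and acts on nearly all cells, while CIITA, which it induces, is the master regulator of MHC class II. All 27 genes of the interferon gamma list rose at least 2-fold with no overlap between the days (median 3.45), and so did all 10 genes of the MHC class II list (median 4.55). The background for a rise of this size is 17.2% of genes, and 18.6% for a rise without overlap. The summed level of the class II genes was 587 to 3138 CPM at day 3 (median 1180.5) and 12788 to 43917 CPM at day 7 (median 38128), after a Day-1 median of 2223 CPM. The lowest day 7 value belonged to CT7_6.

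Ifng, the ligand, measured 0.512 to 1.9 CPM at day 3 (median 0.78) and 23.1 to 68.1 CPM at day 7 (median 42.4), 47.2-fold higher (log2 fold change 5.56 ± 0.26 SE, edgeR FDR = 2.1e-13). Irf1, a transcription factor that interferon gamma induces, ranged over 191 to 379 CPM at day 3 (median 242) and 1322 to 2238 CPM at day 7 (median 1760.2), a log2 fold change of 2.84 ± 0.12 (SE, edgeR FDR = 9.38e-14). Irgm1, a GTPase against intracellular microbes, ranged over 120.0 to 249 CPM at day 3 (median 169.6) and 766 to 1215 CPM at day 7 (median 1053), a log2 fold change of 2.60 ± 0.11 (SE, edgeR FDR = 7.03e-14). The lowest day 7 tumor was above the highest day 3 tumor in all 3. Ifi47 and Gbp11, further interferon-induced GTPases, rose from a median of 152 to 972 CPM and from a median of 6.32 to 293 CPM (6.26-fold and 42.3-fold). The Gbp genes are a family of close paralogs, so the estimated counts may be divided among them with error. Within the list, Nos2, the inducible nitric oxide synthase of macrophages, had the largest log2 fold change, 6.52, and Cxcl9, a chemokine that attracts Cxcr3-bearing T cells, reached 5.56.

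Ciita ranged over 6.2 to 31.2 CPM at day 3 (median 13.5) and 264 to 629.5 CPM at day 7 (median 562), a log2 fold change of 5.15 ± 0.26 (SE, edgeR FDR = 5.54e-13). H2-Aa, an alpha chain of class II, ranged over 128 to 665 CPM at day 3 (median 255) and 2819.9 to 10167 CPM at day 7 (median 9008), a log2 fold change of 4.67 ± 0.30 (SE, edgeR FDR = 1.99e-11). H2-DMa and H2-DMb2, subunits of the chaperone that loads peptide on class II, rose from a median of 63.5 to 979.9 CPM and from a median of 22.8 to 588 CPM. No tumor overlapped, and the lowest H2-Aa value at day 7 was again CT7_6. At Day-1 the medians had been 39.5 CPM for Ciita and 521 CPM for H2-Aa, above those of day 3. MHC class I genes rose less: 12 of 13 were higher (median 1.62), 11 of them at least 2-fold, and Canx, a general chaperone of the endoplasmic reticulum, was lower (-0.22). B2m, the shared light chain, rose from a median of 2082 to 6409.5 CPM (log2 fold change 1.62 ± 0.12 SE, edgeR FDR = 1.12e-10), H2-T23, the nonclassical ligand of Nkg2a receptors, rose from a median of 213 to 1452 CPM (log2 fold change 2.64 ± 0.11 SE, edgeR FDR = 3.52e-14), and Nlrc5, the class I counterpart of Ciita, rose from a median of 105 to 586 CPM. These too did not overlap.

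Type I interferon genes rose to a lesser extent than the interferon gamma list in the median. 32 of 33 were higher, 26 at least 2-fold (median 1.36), and Ifi27 was lower (-0.76). The difference between the medians of the lists was not tested. Parp14, an interferon-induced ADP-ribosyltransferase, ranged over 105 to 193 CPM at day 3 (median 148) and 519 to 945 CPM at day 7 (median 695), a log2 fold change of 2.27 ± 0.11 (SE, edgeR FDR = 3.65e-13). Oasl2, an antiviral synthetase-like protein, ranged over 185 to 274 CPM at day 3 (median 237) and 665 to 1402 CPM at day 7 (median 888), a log2 fold change of 2.04 ± 0.11 (SE, edgeR FDR = 1.1e-12). Irf9, the DNA-binding part of the interferon-activated complex, rose from a median of 105 to 199 CPM (log2 fold change 0.94 ± 0.05 SE, edgeR FDR = 1.06e-12). The 3 genes did not overlap.

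The interferon-stimulated response element, searched as GAAANNGAAA or its reverse complement TTTCNNTTTC, was found in the window of 8 of 15 matched interferon gamma members (53.3%) and 13 of 25 matched type I members (52%). It was in 3.44% of all windows and 3.99% of the tested genes with a window. None of the 7 matched MHC class II members held these letters, while CCAAT or ATTGG was in 7 of 7. Windows of 2 interferon gamma members with the element are printed 5′ to 3′, with its letters in capitals, for Irgm1 (chr11:48871371-48871670, minus strand) and Gbp2 (chr3:142620413-142620712, plus strand).
Irgm1: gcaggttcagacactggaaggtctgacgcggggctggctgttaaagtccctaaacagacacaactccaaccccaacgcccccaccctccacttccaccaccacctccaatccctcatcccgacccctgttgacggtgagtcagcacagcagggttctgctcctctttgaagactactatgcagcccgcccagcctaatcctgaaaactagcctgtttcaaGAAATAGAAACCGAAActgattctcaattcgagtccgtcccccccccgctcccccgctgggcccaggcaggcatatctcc
Gbp2: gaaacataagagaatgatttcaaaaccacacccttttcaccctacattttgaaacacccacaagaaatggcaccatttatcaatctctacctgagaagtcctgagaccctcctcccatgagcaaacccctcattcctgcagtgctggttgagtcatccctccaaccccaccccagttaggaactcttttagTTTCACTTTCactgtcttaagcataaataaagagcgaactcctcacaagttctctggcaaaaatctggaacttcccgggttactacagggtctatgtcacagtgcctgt
In Irgm1 the capitals are 2 overlapping matches, and in Gbp2 1 match on the reverse strand, upstream of the start in both genes. The log2 fold changes were 2.60 and 3.68.

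T cell, cytotoxic and natural killer genes rose together. All 16 T cell genes (median 2.19), all 12 cytotoxic genes (median 3.02) and all 9 natural killer genes (median 2.25) were at least 2-fold higher. The days did not overlap in 14 of the T cell, 12 of the cytotoxic and 5 of the natural killer genes, against 18.6% of all genes. Summed T cell genes amounted to 73.9 to 157 CPM at day 3 (median 123) and 249 to 905 CPM at day 7 (median 518), with a Day-1 median of 183 CPM. Cd8a, a coreceptor of cytotoxic T cells, measured 1.92 to 10.7 CPM at day 3 (median 6.47) and 12 to 158 CPM at day 7 (median 40.8), a log2 fold change of 3.14 ± 0.42 (SE, edgeR FDR = 1.06e-06). Cd4, the coreceptor of helper T cells that some macrophages and dendritic cells also carry, measured 9.07 to 22.1 CPM at day 3 (median 14.3) and 24.1 to 84.9 CPM at day 7 (median 60.0), a log2 fold change of 1.98 ± 0.18 (SE, edgeR FDR = 5.29e-09). Cd3e, part of the T cell receptor complex, measured 2.14 to 6 CPM at day 3 (median 4.29) and 8.29 to 54.4 CPM at day 7 (median 19.6), a log2 fold change of 2.5 ± 0.27 (SE, edgeR FDR = 5.69e-08). No day 7 tumor fell to the level of day 3, though the spread at day 7 was wide in Cd8a and Cd3e.

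Gzmb, granzyme B, the protease of cytotoxic granules, ranged over 14.2 to 36.2 CPM at day 3 (median 27.2) and 262 to 620.2 CPM at day 7 (median 409), a log2 fold change of 3.96 ± 0.17 (SE, edgeR FDR = 8.5e-14). Gzma, granzyme A, rose from a median of 24.9 to 368 CPM and Ccl5, a chemokine released by activated T cells, from a median of 24.9 to 361 CPM. Klrk1, the activating receptor Nkg2d of natural killer and CD8+ T cells, ranged over 7.66 to 24.9 CPM at day 3 (median 16.3) and 136 to 275 CPM at day 7 (median 221), a log2 fold change of 3.78 ± 0.19 (SE, edgeR FDR = 3.93e-13), and Ncr1, restricted to natural killer and related innate lymphoid cells, rose from a median of 13.3 to 74.3 CPM (log2 fold change 2.25 ± 0.19 SE, edgeR FDR = 1.52e-09). These genes were higher in every day 7 tumor. Il7r, the receptor of naive and memory T cells, rose from a median of 12 to 54 CPM.

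Regulatory T cell genes rose by smaller folds. All 7 were higher, 6 at least 2-fold and 5 without overlap (median 1.62). Foxp3, their defining transcription factor, measured 4.96 to 7.99 CPM at day 3 (median 7.12) and 6.74 to 15.3 CPM at day 7 (median 12.4), a log2 fold change of 0.85 ± 0.14 (SE, edgeR FDR = 1.78e-05), the tumors overlapped, and the Day-1 median was 20.01 CPM, above the highest day 7 tumor. Il2ra, the high-affinity interleukin 2 receptor chain of these and of activated T cells, measured 9.13 to 14.4 CPM at day 3 (median 13.4) and 46.9 to 78.9 CPM at day 7 (median 63.1), a log2 fold change of 2.28 ± 0.11 (SE, edgeR FDR = 2.87e-13). Ctla4, an inhibitory receptor, and Ikzf2, the factor Helios, rose from a median of 4.82 to 15.2 CPM and from a median of 4.8 to 15.3 CPM. All 9 inhibitory receptors and ligands of the checkpoint list rose (median 1.79). Cd274, the ligand PD-L1, ranged over 21.3 to 60.4 CPM at day 3 (median 32.7) and 465 to 868 CPM at day 7 (median 639.7), 19.2-fold higher (log2 fold change 4.26 ± 0.19 SE, edgeR FDR = 8.87e-14). Btla, an inhibitory receptor of B and T cells and dendritic cells, ranged over 3.41 to 6.71 CPM at day 3 (median 5.9) and 39 to 67 CPM at day 7 (median 59.4), a log2 fold change of 3.43 ± 0.12 (SE, edgeR FDR = 5.4e-15). Havcr2, Tim-3, rose from a median of 32.6 to 102 CPM, and Entpd1, the ectonucleotidase CD39, from a median of 84 to 288 CPM. In Il2ra, Cd274, Btla, Havcr2 and Entpd1 the days did not overlap.

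B cell and plasma cell genes were low and mixed. Of 10 B cell genes 5 rose, 2 fell and 3 were not called (median 0.31). With total counts 4 rose and 5 fell (median 0.06). Ighm, the IgM heavy chain, rose from a median of 29.8 to 81.2 CPM (log2 fold change 1.6 ± 0.11 SE, edgeR FDR = 9.21e-11), Cd22, an inhibitory receptor of B cells, from a median of 21.5 to 50.5 CPM, and Cd79a, the signaling chain of the B cell receptor, fell from a median of 18.1 to 4.45 CPM (log2 fold change -1.97 ± 0.11 SE, edgeR FDR = 1.64e-12). Pax5, the factor that sets B cell identity, also fell (-0.70). The defining gene Ms4a1 stayed at or under 1.3 CPM in every one of the 20 tumors and was not tested. Of 7 tested plasma cell genes 4 rose, with medians at or below 5.76 CPM at day 7.

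Monocyte genes were among those with the largest rises. All 8 members were higher, 7 at least 2-fold (median 3.25), and their summed level was 225 to 556 CPM at day 3 (median 372) and 2157 to 2985 CPM at day 7 (median 2632). Chil3, a chitinase-like protein of monocytes and their marrow precursors, measured 0.451 to 2.91 CPM at day 3 (median 1.41) and 87.6 to 416 CPM at day 7 (median 199), 132-fold higher (log2 fold change 7.04 ± 0.37 SE, edgeR FDR = 9.52e-13). F10, coagulation factor X, measured 0.902 to 7.61 CPM at day 3 (median 3.58) and 154 to 491 CPM at day 7 (median 372), a log2 fold change of 6.44 ± 0.31 (SE, edgeR FDR = 3.58e-13). Ly6c2, the surface marker of classical monocytes, measured 7.22 to 15.3 CPM at day 3 (median 9.58) and 98.6 to 339.6 CPM at day 7 (median 215), a log2 fold change of 4.41 ± 0.20 (SE, edgeR FDR = 1.24e-13). Each had day 7 tumors that were all above day 3. Ccr2, the receptor with which monocytes leave the marrow, had medians of 252 CPM at Day-1, 129.8 at day 3 and 924 at day 7 (log2 fold change 2.89 ± 0.18 SE, edgeR FDR = 9.19e-12). Csf2rb, the signaling chain shared by the GM-CSF, interleukin 3 and interleukin 5 receptors, rose from a median of 153 to 978 CPM (log2 fold change 2.65 ± 0.08 SE, edgeR FDR = 1.26e-15), and Ly6i, a Ly6 family protein, rose from a median of 0.547 to 122 CPM (log2 fold change 7.08 ± 0.52 SE, edgeR FDR = 1.53e-10). Csf2rb and the Ly6 genes have close paralogs that could share counts.

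Dendritic cell genes rose, save 1. Of 13 members 12 were higher, all at least 2-fold (median 3.03), and Fscn1, an actin bundler of mature dendritic cells and tumor cells, was not called (-0.09). Batf3, which type 1 conventional dendritic cells require, measured 0.922 to 3.25 CPM at day 3 (median 1.87) and 55.2 to 106 CPM at day 7 (median 77.5), a log2 fold change of 5.25 ± 0.20 (SE, edgeR FDR = 1.1e-14). Ccl17, a chemokine of type 2 dendritic cells and macrophages, measured 11 to 26.4 CPM at day 3 (median 18.2) and 344 to 1004 CPM at day 7 (median 655), a log2 fold change of 5.14 ± 0.18 (SE, edgeR FDR = 6.01e-15). Clec9a, the receptor for dead cells on type 1 dendritic cells, measured 2.7 to 6.39 CPM at day 3 (median 3.31) and 19.9 to 76.8 CPM at day 7 (median 61), a log2 fold change of 4.0 ± 0.22 (SE, edgeR FDR = 1.53e-12). The groups were apart in all 3. Irf8, needed for type 1 dendritic cells and monocytes and also induced by interferon gamma, rose from a median of 78.8 to 706 CPM, and Flt3, the growth factor receptor of dendritic cell precursors, from a median of 6.4 to 49.4 CPM. Among the genes with the smallest p were Naaa, an amidase expressed in type 1 dendritic cells and macrophages, from a median of 60.9 to 1193 CPM (log2 fold change 4.22 ± 0.13 SE, edgeR FDR = 1.33e-15), and Cd40, the receptor through which T cells license dendritic cells, from a median of 14.6 to 174 CPM (log2 fold change 3.54 ± 0.11 SE, edgeR FDR = 1.59e-15).

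Neutrophil genes rose, the granule genes from near 0, with Mmp9 as the exception. 13 of 14 were at least 2-fold higher with no overlap (median 4.08). Lcn2, a granule protein that binds bacterial iron carriers, measured 0.871 to 3.45 CPM at day 3 (median 1.69) and 53.7 to 384 CPM at day 7 (median 121), a log2 fold change of 6.13 ± 0.34 (SE, edgeR FDR = 2.69e-12). Cxcr2, the chemokine receptor of mature neutrophils, measured 7.31 to 16.8 CPM at day 3 (median 11.1) and 53.6 to 157 CPM at day 7 (median 93.9), a log2 fold change of 3.14 ± 0.18 (SE, edgeR FDR = 4.45e-12). Ngp, a granule protein of marrow neutrophil precursors, was at 0 to 0.119 CPM at day 3, with 8 counts in all 10 tumors, and at 10.6 to 127 CPM at day 7 (median 33.1, edgeR FDR = 9.34e-12). Mpo, myeloperoxidase, which is made at an early stage of maturation, rose from a median of 0.343 to 6.58 CPM, and Csf3r, the G-CSF receptor, from a median of 71.5 to 259 CPM. The granule genes Lcn2, Ngp and Mpo were thus present at day 7 and low or near 0 at day 3. Mmp9, gelatinase B, which osteoclast-like and macrophage cells also make, fell, as given among the proteases. Because Mmp9 held most of the counts of the list at day 3, the summed level of the list went the other way, 1299.5 to 3850.1 CPM at day 3 (median 2124) and 740.3 to 1560.4 CPM at day 7 (median 895).

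Granulocytes of the allergic type showed a part of this pattern. Mcpt8, the protease that marks mouse basophils, measured 0.0541 to 0.43 CPM at day 3 (median 0.211) and 61.7 to 179 CPM at day 7 (median 105), a log2 fold change of 8.97 ± 0.29 (SE, edgeR FDR = 2.26e-15) and had a Day-1 median of 1.21 CPM. Of 9 mast cell genes 8 rose (median 0.88), among them Hdc, histidine decarboxylase, which basophils also express, from a median of 9.83 to 107 CPM, and Ms4a2, the beta chain of the IgE receptor, from a median of 3.76 to 20.8 CPM. Of 6 tested eosinophil genes 5 rose (median 3.50). Ear2, an eosinophil-associated ribonuclease with close paralogs that monocytes and macrophages also make, rose from a median of 3.9 to 334 CPM (log2 fold change 6.57 ± 0.35 SE, edgeR FDR = 1.27e-12), and Alox15, a lipoxygenase of eosinophils and resident macrophages, from a median of 5.85 to 124 CPM. Epx, the defining peroxidase of eosinophils, rose from a median of 0.0816 to 0.925 CPM with overlapping tumors (log2 fold change 2.72 ± 0.47 SE, edgeR FDR = 2.5e-05). Ccr3, the eotaxin receptor, was the member that fell, from a median of 7.1 to 4.08 CPM (log2 fold change -0.85 ± 0.21 SE, edgeR FDR = 0.00121).

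Macrophage genes changed little beside these. Of 16 members 13 rose, 1 of them at least 2-fold, and 3 were not called, namely Cd68, Mertk and Folr2 (median 0.63). Adgre1, the F4/80 antigen, measured 229 to 367 CPM at day 3 (median 299.5) and 401 to 680.3 CPM at day 7 (median 508), a log2 fold change of 0.78 ± 0.10 (SE, edgeR FDR = 7.29e-07), and Csf1r, the receptor for macrophage colony-stimulating factor, from a median of 756 to 1386 CPM (log2 fold change 0.91 ± 0.07 SE, edgeR FDR = 1.9e-10). Both were apart between the days. Fcgr1, the high-affinity IgG receptor, which interferon gamma induces, was the member with the largest rise, from a median of 93.2 to 347 CPM (log2 fold change 1.88 ± 0.13 SE, edgeR FDR = 5.92e-11). Cd68, a lysosomal glycoprotein of macrophages, was at 346 to 517 CPM at day 3 (median 446) and 365 to 528 CPM at day 7 (median 479), a log2 fold change of 0.05 ± 0.08 (SE, edgeR FDR = 0.538), with overlapping tumors. Summed over the list, macrophage genes had already been higher at day 3 than at Day-1, with medians of 5418 CPM at Day-1, 17210.0 at day 3 and 24905 at day 7. Abundant members weigh most in this sum, and single members differed in size of change. From Day-1 to day 3 the median went from 616 to 756 CPM in Csf1r, from 287 to 446 in Cd68 and from 298 to 1020 in C1qb.

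**Figure D3:**
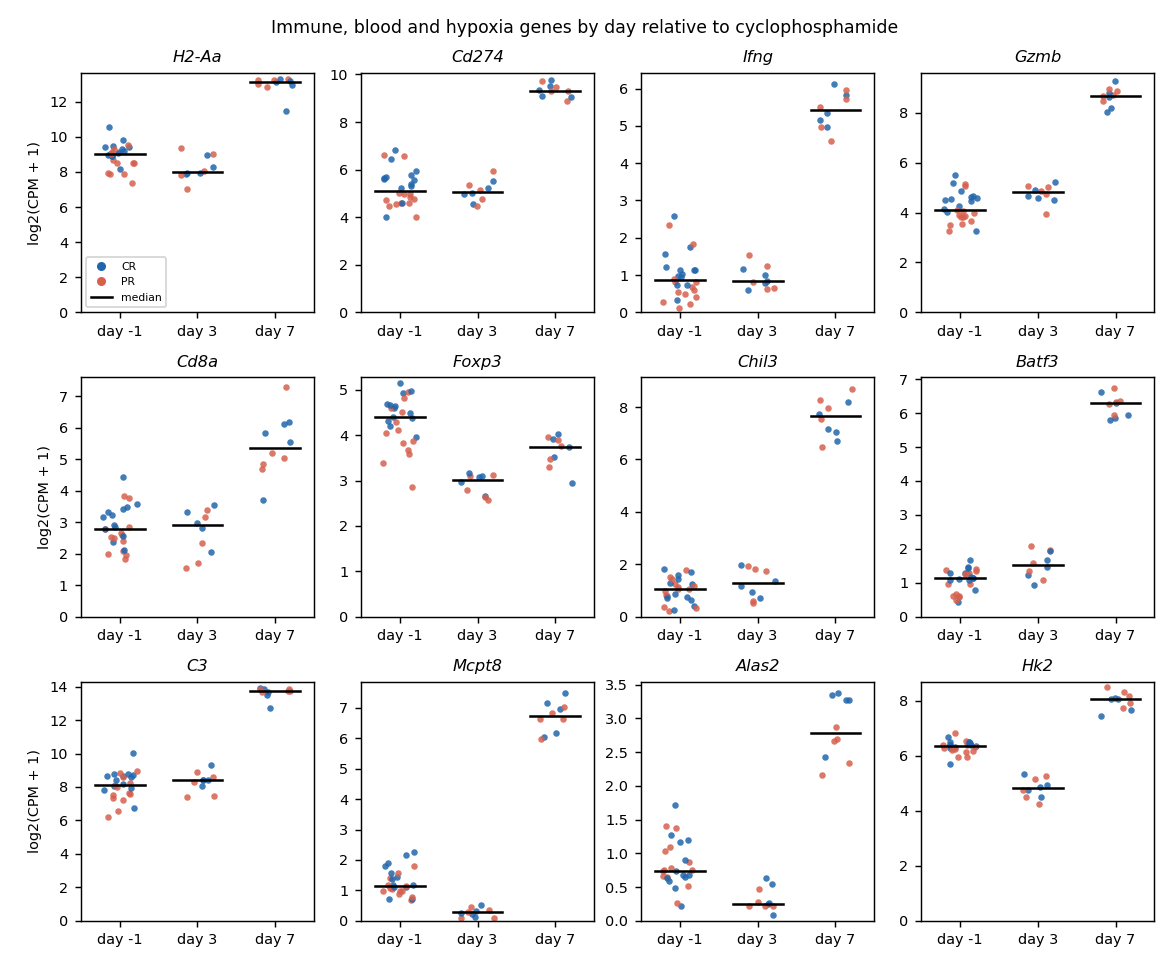
Levels of 12 genes in every tumor at Day-1, day 3 and day 7 as log2(CPM + 1), blue for CR and red for PR, with a bar at the median of the day. In H2-Aa, Cd274, Ifng, Gzmb, Cd8a, Chil3, Batf3, C3, Mcpt8, Alas2 and Hk2 all day 7 tumors lie above all day 3 tumors, and in Foxp3 the days overlap.

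The complement system supplied several of the genes with the smallest p. Complement is a cascade of plasma proteases, made in the liver and also by fibroblasts, macrophages and tumor cells, whose pathways converge on the cleavage of C3. Of 16 members 15 rose, 9 at least 2-fold (median 1.51), and C5ar1, a receptor of cleaved C5, was not called. C1s1 and C1ra, proteases of the classical pathway, rose from a median of 715 to 4259.8 CPM and from a median of 285 to 1919 CPM (log2 fold change 2.56 ± 0.08 SE, edgeR FDR = 1.33e-15 for C1s1). C4b measured 251 to 338 CPM at day 3 (median 280.0) and 1389.7 to 1653 CPM at day 7 (median 1593), a log2 fold change of 2.43 ± 0.06 (SE, edgeR FDR = 7.71e-17). C4a, its near-identical copy, measured 10.3 to 16.6 CPM at day 3 (median 13) and 58.1 to 68.5 CPM at day 7 (median 64.9), a log2 fold change of 2.30 ± 0.05 (SE, edgeR FDR = 7.71e-17), and counts of the pair may be divided with error. C3, the central component, measured 167 to 624 CPM at day 3 (median 339) and 6741 to 15425 CPM at day 7 (median 13738), 39.1-fold higher (log2 fold change 5.29 ± 0.23 SE, edgeR FDR = 1.1e-13). Cfb, the protease of the alternative pathway, ranged over 121 to 282 CPM at day 3 (median 183) and 2126 to 6679 CPM at day 7 (median 4102), a log2 fold change of 4.45 ± 0.21 (SE, edgeR FDR = 3e-13). The groups were far apart in each of these genes. C1qb, a chain of the recognition protein made by macrophages, rose by 0.63 on the log2 scale. C1s2, a further C1s gene, rose from a median of 61 to 382 CPM, and Cd47, the surface signal that restrains phagocytosis by macrophages, from a median of 285 to 666 CPM (log2 fold change 1.25 ± 0.04 SE, edgeR FDR = 7.66e-16).

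Of 24 inflammatory cytokines and chemokines 21 rose, 20 at least 2-fold (median 2.30). Il6, a cytokine of the acute phase response, measured 0.88 to 2.01 CPM at day 3 (median 1.29) and 7.04 to 27.3 CPM at day 7 (median 18.6), a log2 fold change of 3.65 ± 0.22 (SE, edgeR FDR = 6.88e-12). Csf2, the cytokine GM-CSF, measured 0.708 to 2.26 CPM at day 3 (median 0.875) and 8.06 to 17.2 CPM at day 7 (median 12.7), a log2 fold change of 3.52 ± 0.21 (SE, edgeR FDR = 5.17e-12). Cxcl1 and Cxcl5, ligands of Cxcr2, rose from a median of 7.59 to 59 CPM and from a median of 39.2 to 303 CPM, and Ccl11, eotaxin, from a median of 63.2 to 305 CPM. None of these overlapped. Il11 and Lif, cytokines of the interleukin 6 family, fell (-1.44 and -0.63), and Csf1, the macrophage growth factor, was not called (0.10). Among immediate early genes 13 of 20 rose, led by Atf3, a stress-induced repressor, from a median of 8.05 to 178 CPM (log2 fold change 4.38 ± 0.14 SE, edgeR FDR = 1.72e-15), and Egr2, from a median of 11.6 to 110.4 CPM (log2 fold change 3.06 ± 0.12 SE, edgeR FDR = 2.85e-14). Fosl1, an AP-1 subunit of invasive tumor cells, fell from a median of 43.9 to 4.2 CPM (log2 fold change -3.24 ± 0.22 SE, edgeR FDR = 6.49e-11), Egr1 fell too (-0.78), and Fos, Jun, Fosb, Ier2 and Nr4a1, which many stimuli induce within minutes, were not called.

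Other genes with the smallest p for a rise were Kmo, a kynurenine hydroxylase of macrophages, from a median of 7.25 to 81.5 CPM (log2 fold change 3.48 ± 0.11 SE, edgeR FDR = 1.92e-15), and Htr7, a serotonin receptor, from a median of 2.92 to 88.3 CPM (log2 fold change 4.82 ± 0.16 SE, edgeR FDR = 1.92e-15). Other falls with the smallest p were in Mast4, a kinase, from a median of 103 to 22.8 CPM, Eif2d, a translation factor, from a median of 141 to 65.2 CPM, Aaas, a nuclear pore protein, from a median of 151 to 62.3 CPM, and Arpin, an inhibitor of the Arp2/3 complex, from a median of 78.8 to 26.1 CPM. All 6 were without overlap.

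Red cell genes were lower at day 3 than at day 7. All 11 tested members rose at least 2-fold (median 4.61), 9 without overlap. Alas2, which starts heme synthesis in red cell precursors, measured 0.0594 to 0.55 CPM at day 3 (median 0.191) and 3.46 to 9.4 CPM at day 7 (median 5.9), a log2 fold change of 4.61 ± 0.25 (SE, edgeR FDR = 1.78e-12), with a Day-1 median of 0.675 CPM. Hemgn, a nuclear protein of erythroid precursors, measured 0.512 to 2.28 CPM at day 3 (median 1.15) and 5 to 11.2 CPM at day 7 (median 6.45), a log2 fold change of 2.59 ± 0.20 (SE, edgeR FDR = 4.42e-10). Gata1, the transcription factor of erythroid, megakaryocytic, mast and eosinophil lineages, measured 0.27 to 0.891 CPM at day 3 (median 0.627) and 1.92 to 4.26 CPM at day 7 (median 2.65), a log2 fold change of 2.18 ± 0.20 (SE, edgeR FDR = 3.33e-09). Every day 7 tumor was above every day 3 tumor in all 3. Blood left in the tissue was not measured, and its part in these values was not tested. Among 8 genes of iron and heme handling 6 rose, led by Cp, ceruloplasmin, from a median of 344 to 1667 CPM.

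Hypoxia and glycolysis genes rose, so that in sum all 10 day 7 tumors were above all day 3 tumors, CT7_6 the least. Of 24 members 22 rose, 14 at least 2-fold (median 1.22), and Angptl4 and Ddit4 fell (-1.53 and -0.56). The summed level was 5399.9 to 5934 CPM at day 3 (median 5598) and 6319 to 15429 CPM at day 7 (median 12112), with CT7_6 the lowest at day 7 and a Day-1 median of 8545 CPM. Hk2, the hexokinase of fast-glycolytic cells, measured 17.8 to 39.4 CPM at day 3 (median 27.1) and 171 to 355 CPM at day 7 (median 268), a log2 fold change of 3.21 ± 0.15 (SE, edgeR FDR = 2.6e-13). Ldha, lactate dehydrogenase, measured 588 to 699.8 CPM at day 3 (median 645) and 924 to 1952 CPM at day 7 (median 1629.9), a log2 fold change of 1.32 ± 0.09 (SE, edgeR FDR = 1.07e-10). Ankrd37, a target of hypoxia-inducible factors, measured 1.6 to 3.41 CPM at day 3 (median 2.41) and 8.75 to 37.4 CPM at day 7 (median 25.8), a log2 fold change of 3.35 ± 0.22 (SE, edgeR FDR = 2.11e-11). None overlapped, and the Day-1 medians of 80.9, 1008 and 3.92 CPM lay between those of the later days. Ndrg1, a stress gene of hypoxic cells, and Adm, adrenomedullin, rose from a median of 88.4 to 422 CPM and from a median of 4.7 to 23.4 CPM.

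The core of the hypoxia response element, ACGTG or its reverse complement CACGT, was in 16 of 20 matched members (80%), against 19.6% of windows and 27% of tested genes with a window. Windows of 2 members are printed 5′ to 3′, with the core in capitals, for Hk2 (chr6:82774405-82774704, minus strand) and Bnip3 (chr7:138909457-138909756, minus strand), a mitophagy receptor whose log2 fold change was 2.45.
Hk2: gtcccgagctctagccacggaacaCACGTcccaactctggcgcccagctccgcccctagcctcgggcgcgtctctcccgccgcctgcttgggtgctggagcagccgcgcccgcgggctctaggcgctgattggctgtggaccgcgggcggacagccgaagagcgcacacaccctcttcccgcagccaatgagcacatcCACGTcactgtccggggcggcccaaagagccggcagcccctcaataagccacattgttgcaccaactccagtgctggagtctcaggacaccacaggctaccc
Bnip3: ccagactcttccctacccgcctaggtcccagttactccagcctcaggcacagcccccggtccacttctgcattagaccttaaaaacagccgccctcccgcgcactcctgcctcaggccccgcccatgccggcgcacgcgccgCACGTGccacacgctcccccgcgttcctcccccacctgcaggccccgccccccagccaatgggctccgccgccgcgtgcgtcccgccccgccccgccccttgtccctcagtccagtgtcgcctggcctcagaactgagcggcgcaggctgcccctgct
Hk2 holds 2 separate cores, and in Bnip3 the capitals are a palindrome in which a core on each strand overlaps. Oxygen was not measured.

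Other parts of metabolism moved less. Of 22 nuclear genes of oxidative phosphorylation 14 rose and 2 fell, none by 2-fold (median 0.21, but -0.05 with total counts). Of 12 mitochondrially encoded genes 5 fell, led by mt-Nd2, a subunit of complex I, from a median of 2058 to 1076 CPM (log2 fold change -0.89 ± 0.05 SE, edgeR FDR = 3.4e-12), and mt-Nd1 alone rose (0.10 with TMM, -0.15 with total counts). With total counts 9 of the 12 fell and 0 rose. Cholesterol synthesis genes rose in 13 of 19 cases (median 0.49), as in Mvd, of the mevalonate pathway, from a median of 16.2 to 52 CPM. The Day-1 median of Mvd was 36.1 CPM. In the lysosome list 13 rose and 10 fell. Ctss, the protease that trims the class II invariant chain, rose from a median of 1166 to 4892 CPM (log2 fold change 1.97 ± 0.12 SE, edgeR FDR = 1.23e-11), while Ctsd, an abundant aspartyl protease, fell from a median of 3879 to 1629.8 CPM (log2 fold change -1.26 ± 0.06 SE, edgeR FDR = 6.07e-13). Neither overlapped. Heat shock genes were mixed, 4 higher and 6 lower of 13, but 3 higher and 10 lower with total counts. Genes of stress in the endoplasmic reticulum rose in 11 of 14 cases, none by 2-fold (median 0.45). With total counts 10 of these rose and 3 fell (median 0.19).

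Matrix genes fell. Of 23 collagens and matrix genes 21 were lower, 12 at least 2-fold and 16 without overlap (median -1.09), and Lox, which crosslinks collagen, was higher, from a median of 88.5 to 138 CPM. The summed level was 49234 to 56929 CPM at day 3 (median 52237) and 16554 to 44580.0 CPM at day 7 (median 22074), with CT7_6 the highest at day 7. Col1a1, the main fibrillar collagen chain, measured 2281 to 3350.3 CPM at day 3 (median 2841) and 929 to 2069 CPM at day 7 (median 1224), a log2 fold change of -1.09 ± 0.13 (SE, edgeR FDR = 2.52e-07). Col5a1, a chain that sets fibril width, measured 898 to 1178 CPM at day 3 (median 1078) and 227 to 684 CPM at day 7 (median 312), a log2 fold change of -1.62 ± 0.15 (SE, edgeR FDR = 3.95e-09). Col18a1, a basement membrane collagen, measured 450.4 to 564 CPM at day 3 (median 523) and 93 to 194 CPM at day 7 (median 134), a log2 fold change of -1.90 ± 0.10 (SE, edgeR FDR = 6.24e-13). The days did not overlap in these genes. Fibroblast genes did not follow as a group, with 3 higher, 6 lower and 2 not called (median -0.35). Fbln2, fibulin 2, fell from a median of 439 to 204 CPM (log2 fold change -1.08 ± 0.08 SE, edgeR FDR = 1.56e-10), and Dcn, decorin, rose from a median of 956 to 1703 CPM (log2 fold change 0.91 ± 0.09 SE, edgeR FDR = 2.04e-08). The list held members of both directions, and Fap, fibroblast activation protein, overlapped through CT7_6, which was its highest tumor at day 7.

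Matrix proteases diverged. Mmp12, the elastase of macrophages, measured 3.7 to 21.9 CPM at day 3 (median 7.47) and 116 to 944 CPM at day 7 (median 535), a log2 fold change of 5.87 ± 0.38 (SE, edgeR FDR = 2.38e-11). Mmp9 measured 1184 to 3789 CPM at day 3 (median 2040.1) and 170.2 to 481 CPM at day 7 (median 237), a log2 fold change of -2.98 ± 0.25 (SE, edgeR FDR = 1.2e-09). Mmp8, the collagenase of neutrophils, rose from a median of 1.07 to 13.2 CPM, and Mmp10, stromelysin 2, fell from a median of 3.31 to 0.511 CPM. All 4 were without overlap, in opposite directions. Over the 11 members 5 rose, 5 fell and 1 was not called.

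Vessel genes were mixed. Of 20 endothelial genes 9 rose, 5 fell and 6 were not called (median 0.22, but -0.04 with total counts). Flt1, VEGF receptor 1, which monocytes and macrophages also carry, measured 21.6 to 31.2 CPM at day 3 (median 24.7) and 157 to 295 CPM at day 7 (median 212), a log2 fold change of 3.11 ± 0.10 (SE, edgeR FDR = 1.34e-15). Aplnr, the apelin receptor of sprouting vessels, measured 36.7 to 70.1 CPM at day 3 (median 46.6) and 3.4 to 16.8 CPM at day 7 (median 6.25), a log2 fold change of -2.78 ± 0.20 (SE, edgeR FDR = 1.45e-10). Cdh5, the endothelial cadherin, measured 50.2 to 66.6 CPM at day 3 (median 60.3) and 42.7 to 70.7 CPM at day 7 (median 54.6), a log2 fold change of -0.08 ± 0.08 (SE, edgeR FDR = 0.409). Flt1 and Aplnr separated the days in opposite directions, and Cdh5, like Kdr (-0.08), did not. Pericyte and smooth muscle genes fell in 7 and rose in 4 of 13 cases. Cspg4, the NG2 proteoglycan of pericytes and tumor cells, fell from a median of 13.7 to 4.37 CPM (log2 fold change -1.47 ± 0.15 SE, edgeR FDR = 2.51e-08), and Acta2, smooth muscle actin, rose from a median of 24.4 to 43.8 CPM (log2 fold change 0.75 ± 0.10 SE, edgeR FDR = 1.23e-06).

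Of the mesothelial genes that could be tested, all 3 fell. Msln measured 298 to 440.1 CPM at day 3 (median 351) and 50.1 to 127 CPM at day 7 (median 58.7), a log2 fold change of -2.45 ± 0.14 (SE, edgeR FDR = 2.43e-12). Krt7, a simple epithelial keratin, measured 7.07 to 12.4 CPM at day 3 (median 10.0) and 1.25 to 2.07 CPM at day 7 (median 1.62), a log2 fold change of -2.55 ± 0.11 (SE, edgeR FDR = 8.19e-14). Krt8, its neighbor in the same class, measured 5.78 to 94.4 CPM at day 3 (median 12.6) and 0.0633 to 4.55 CPM at day 7 (median 0.427), a log2 fold change of -5.21 ± 0.71 (SE, edgeR FDR = 1.47e-06). Every day 7 tumor was below every day 3 tumor, and the highest Msln at day 7 was CT7_6. The Day-1 medians were 375, 2.71 and 9.98 CPM.

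Genes of the tissue around the tumor varied from tumor to tumor. Krt5, the keratin of basal skin cells, measured 0.22 to 176 CPM at day 3 (median 0.712) and 0 to 126 CPM at day 7 (median 9.88) and exceeded 10 CPM in 1 tumor of day 3 and 5 of day 7. Of 14 tested skin genes 2 rose, 1 fell and 11 were not called (median 1.47), and without those 6 tumors the median was -1.18. In the remaining 14 tumors 4914 genes were higher and 4926 lower, with mitosis 33 of 33 lower, MHC class II 10 of 10 and interferon gamma 27 of 27 higher, and collagens 21 of 23 lower. The counts of some lists moved, to 6 higher and 6 lower for endothelium, 2 and 7 for pericytes and smooth muscle, 4 and 6 for matrix metalloproteinases, 4 and 4 for heat shock, 17 and 2 for oxidative phosphorylation, and 0 and 3 for skin. In each of the other lists neither count moved by more than 1. Of 19 skeletal muscle genes 16 rose but 1 alone was without overlap (median 1.07), as in Acta1, skeletal actin, with 57.3 to 169 CPM at day 3 (median 115) and 88.6 to 579 CPM at day 7 (median 180.2), a log2 fold change of 1.07 ± 0.29 (SE, edgeR FDR = 0.00243). Of 11 fat cell genes 7 rose (median 0.80), led by Lipe, hormone-sensitive lipase, from a median of 28 to 80.0 CPM, and Lpl, lipoprotein lipase, which macrophages also make, from a median of 80.4 to 602 CPM. With skin and muscle scores as covariates 4695 genes were higher and 4727 lower, and the part of fat in the other results was not tested.

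Leaving out CT7_6 changed the count of calls over all genes by less than 1.5 times. Of the 3794 genes called with at least 2-fold, CT7_6 was the day 7 tumor nearest to day 3 in 1962 (51.7%), and on the axis from the mean of day 3 (0) to the mean of day 7 (1) it lay at 0.775, where the other day 7 tumors lay at 0.976 to 1.06. Its MHC class II sum was 12788 CPM, its collagen sum 44580.0 CPM and its mitosis sum 1265 CPM, the lowest, highest and lowest of day 7. Without it 5111 genes were higher and 5085 lower, with MHC class II still 10 of 10 higher (median 4.66), collagens 21 of 23 lower (median -1.19) and mitosis 33 of 33 lower (median -1.56). The lists in which a count moved by more than 1 were oxidative phosphorylation, with 17 higher, and mitochondrially encoded genes, with 3 higher.

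**Figure D4:**
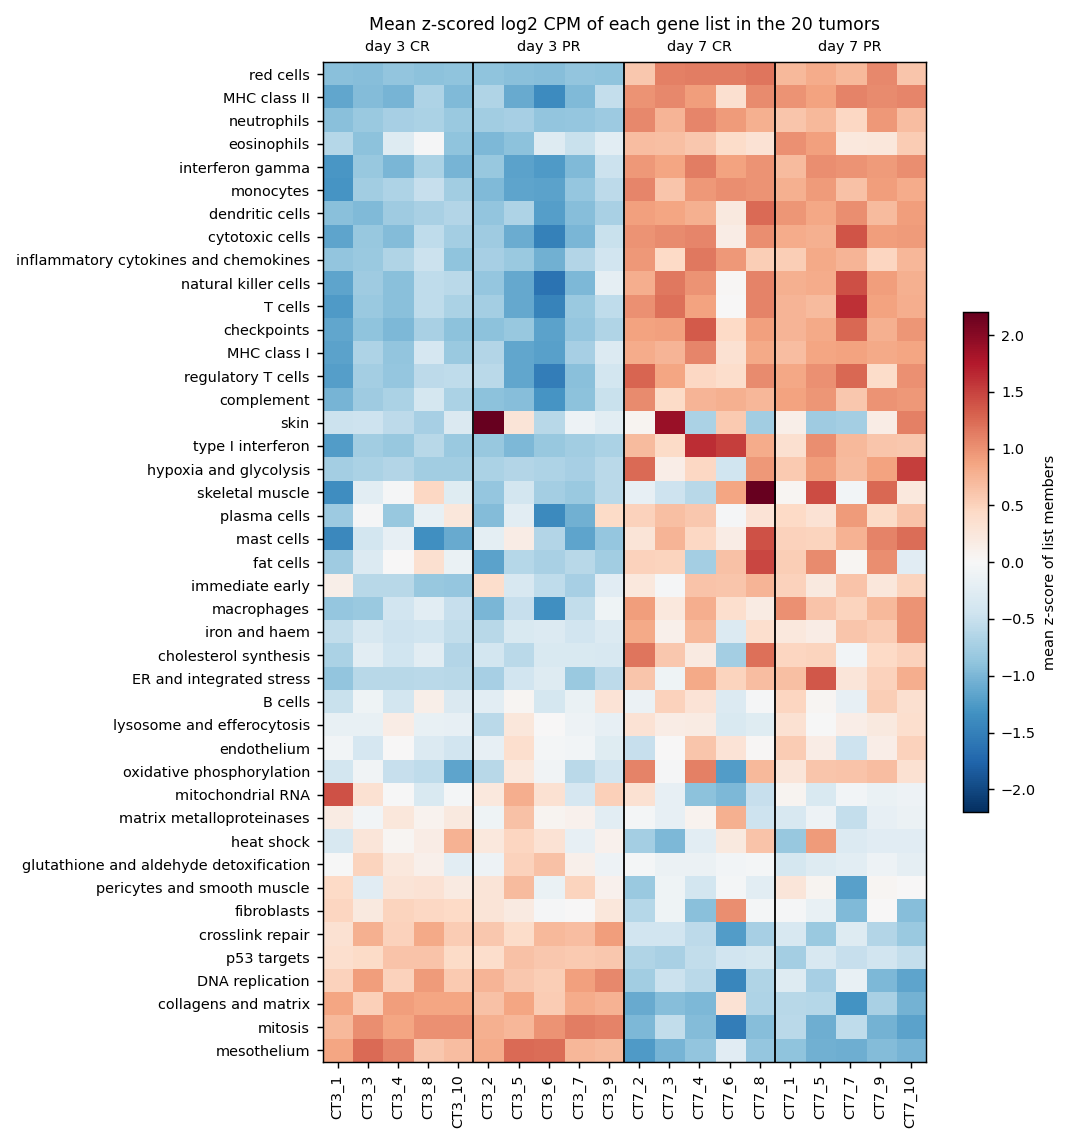
Mean z-scored log2 CPM of each of the 43 lists in the 20 tumors, grouped by day and response, red high and blue low. The day 3 and day 7 blocks are opposite in the upper and lower lists, CT7_6 has the lowest day 7 score in the T cell, natural killer, dendritic cell and MHC lists and the highest in fibroblasts, and the skin list is raised in single tumors such as CT3_2 and CT7_3.

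A difference of the time change between CR and PR tumors was not detected with edgeR. In CR tumors 8847 genes changed (68.7%) and in PR tumors 9092 (70.6%), from 5 tumors against 5 each. Both called 8010 genes, 7998 of them in the same direction and 12 in opposite directions. The log2 fold changes of the 2 response groups, which share no tumor, had a Pearson correlation of 0.912 across the 12872 genes, which are not independent replicates. The difference of the time change between CR and PR passed the threshold in 0 genes (0%) with edgeR and in 0 with limma-voom, with 410 at an unadjusted p under 0.05 in edgeR, or 3.19%, and a smallest FDR of 0.757. DESeq2 called 6 genes, with a smallest DESeq2 FDR of 9.21e-15, namely Gm8815, C030014I23Rik, Dmkn, Krt10, Gm21742 and Cstdc5. The 5 genes with the smallest p for the difference in edgeR were Cideb, Dmkn, Krt1, Chrna1os and Krt10, none past the threshold, and Dmkn, Krt1 and Krt10 belong to the skin list. Among genes with at least 2-fold change upward the median was 1.78 in CR and 1.86 in PR, and downward -1.4 and -1.56. As examples of list medians, that of MHC class II was 4.58 in CR and 4.52 in PR, that of mitosis -1.63 and -1.55, and that of cytotoxic cells 2.81 and 3.23. The skin medians differed most of the 43 lists, 5.04 in CR and -1.81 in PR, and CT3_2 and CT7_3 held the highest levels of its genes.

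**Figure D5:**
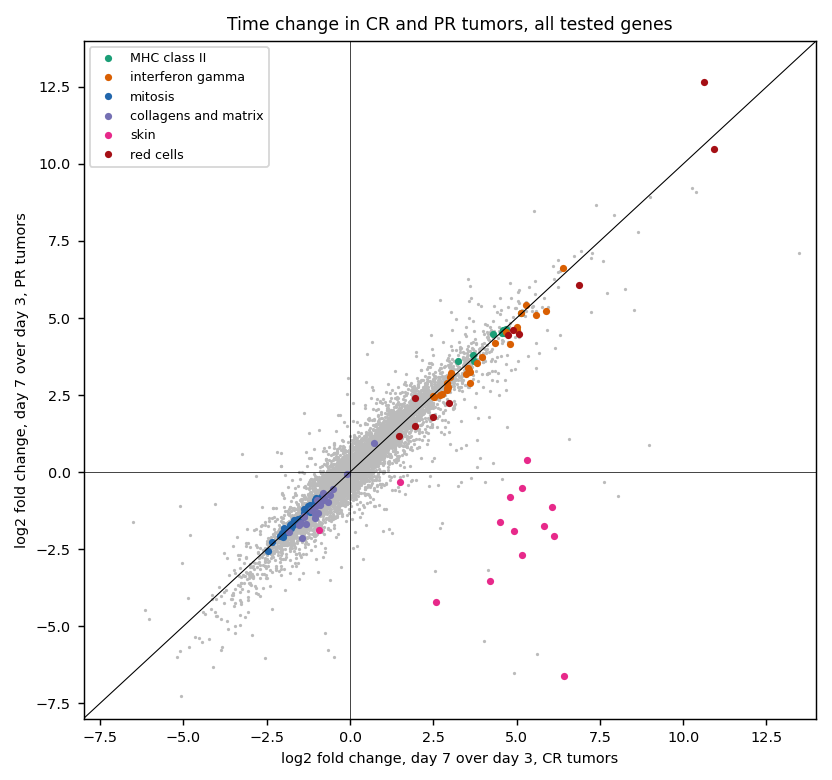
Log2 fold change of day 7 over day 3 in CR tumors (horizontal) and PR tumors (vertical) for all 12872 tested genes in gray, with members of 6 lists in color and the diagonal drawn. Immune, mitosis, matrix and red cell members lie along the diagonal, and skin members lie to the right of it.

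The Day-1 tumors, given with no test, mostly lay on the day 3 side of the genes that rose. Of the 2214 genes at least 2-fold higher, the Day-1 mean lay outside the day 3 to day 7 interval on the day 7 side in 2.44%, inside it and nearer day 7 in 7.05%, inside it and nearer day 3 in 34.7%, and below both days in 55.8%. Of the 1580 genes at least 2-fold lower, the Day-1 mean was on the day 3 side, above both, in 34.6%, inside and nearer day 3 in 37%, inside and nearer day 7 in 20.7%, and below both in 7.78%. Genes whose Day-1 level lay nearer to day 7, or beyond it, were thus the smaller share in both directions. Every Day-1 library held fewer counts than every later one. The summed level of mitochondrially encoded genes also differed, with medians of 59594 CPM at Day-1, 30793 at day 3 and 29335 at day 7. What part such differences between libraries have in the Day-1 comparisons was not tested.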

How the data were processed

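RNA of 46 tumors was sequenced single-end, and the authors pseudoaligned the reads with kallisto (version not given in the sources used here) to GRCm38.p6 and deposited a table of estimated counts per gene as whole numbers. The deposited table as used here ends within the gene names beginning with P, so later symbols were not analysed here. A total of 13 symbols had turned into dates, and these stayed in the counts but were passed over when genes were picked by name. In addition 1 incomplete line was left out, and 0 columns were without a sample. Counts were rounded already and entered edgeR 4.0.16 (R 4.3.3) after its expression filter, leaving 12872 genes, with TMM scaling and the older form of its quasi-likelihood test. The model held 4 groups (day by response, 5 tumors each), and the day 7 minus day 3 contrast weighted CR and PR equally. CPM were computed on TMM sizes of all 46 tumors. FDR under 0.1 was called. DESeq2 1.42.0 and limma 3.58.1 were alternatives. The 43 lists and their members were chosen with earlier results of these data known, and support nothing by themselves. Named genes were the 15 with the smallest p and the 5 with the largest fold in each direction at a mean of at least 5 CPM, up to 5 per list by p, 5 for the CR to PR difference, and defining genes. Some genes so chosen are not reported here.

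Tumors came from different mice. Among 190 pairs of tumors 0 were identical, and counts differed beyond sampling noise in each, by a chi-square of at least 8.04 per degree of freedom. Same-numbered tumors were not paired, with correlations of deviations from -0.0518 to 0.111. On simulated counts for this contrast over the 12872 genes, 95 of 100 genes changed by a log2 fold of 1 and 99 of 100 by 2 were recovered. There were 9 false calls, 4.43% of the calls. Only these genes were changed, equally up and down, where 77.7% of genes were called in the tumors. Recovery and false calls under a change that wide were therefore not tested. Alternatives covered scaling, filters, tools, covariates, the replicate block and each tumor left out. Promoter windows are RefSeq's on GRCm38.p6.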

Additional observations from a re-analysis of the deposited data

Results flagged for a closer look

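For 203 named genes and the 43 list sums, each day was searched for a tumor whose gap to its nearest neighbor exceeded Dixon's 95% critical value for 10 tumors, on the log2 scale, and 70 of 492 such groups (14.2%) held one, where chance gives about 1 in 20. CT7_6 was that tumor in 54 cases and CT3_2 in 6. The genes share tumors, so these are not independent cases, and the cause was not tested.

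CT7_6 was the lowest of the 10 day 7 tumors in the following genes and lists, many of them immune. B2m was at 4093 CPM against 5789 to 7342 CPM in the others, Btg2 at 105 against 130.5 to 167 CPM, Btla at 39 against 53 to 67 CPM and C3 at 6741 against 11690.0 to 15425 CPM. Ccl5 was at 97.5 CPM against 229 to 599 CPM in the others, Ccne1 at 19.3 against 31 to 39.9 CPM, Cd4 at 24.1 against 45.4 to 84.9 CPM and Ciita at 264 against 503 to 629.5 CPM. Clec9a was at 19.9 CPM against 53.1 to 76.8 CPM in the others, Csf2rb at 714 against 876 to 1093 CPM, Ctss at 2545 against 4171 to 5736 CPM and E2f2 at 30.2 against 48.4 to 80.4 CPM. Entpd1 was at 186 CPM against 247 to 339 CPM in the others, F10 at 154 against 315 to 491 CPM, Fanca at 43.7 against 55.1 to 70.5 CPM and Flt3 at 27.1 against 40.7 to 58.5 CPM. Gzma was at 126 CPM against 328 to 484 CPM in the others, H2-Aa at 2819.9 against 7229 to 10167 CPM, H2-DMa at 561 against 919 to 1168 CPM and H2-DMb2 at 245 against 498 to 656 CPM. Htr7 was at 50.7 CPM against 76.1 to 102 CPM in the others, Il7r at 19.2 against 45.1 to 72.3 CPM, Irf8 at 490.3 against 649.6 to 821 CPM and Itgb3 at 30.0 against 47.7 to 60.0 CPM. Kif1a was at 14.2 CPM against 22.2 to 33.3 CPM in the others, Mmp12 at 116 against 383 to 944 CPM, Naaa at 679 against 1083 to 1274 CPM and Nfatc1 at 59.4 against 79.8 to 108 CPM. Nos2 was at 42.9 CPM against 148 to 579 CPM in the others, the cytotoxic cells list at 664 against 1419 to 2078 CPM, the plasma cells list at 11.2 against 18.2 to 25.9 CPM and the dendritic cells list at 1595 against 2439 to 3159.9 CPM. The MHC class II list was at 12788 CPM against 31901 to 43917 CPM in the others, the MHC class I list at 16877 against 23461 to 28253 CPM, the complement list at 21450.0 against 28656 to 38097 CPM and the oxidative phosphorylation list at 6574 against 7444 to 8446 CPM.

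CT7_6 was the highest of the 10 day 7 tumors in the following genes and lists, among them matrix genes. Angptl4 was at 560.3 CPM against 100.1 to 191 CPM in the others, Arpin at 33.2 against 23.7 to 28.1 CPM, Cenpt at 63.7 against 54.4 to 58.8 CPM and Ces2e at 1.44 against 0.124 to 0.545 CPM. Col5a1 was at 684 CPM against 227 to 360.0 CPM in the others, Eda2r at 50.7 against 19.5 to 31.3 CPM, Egr1 at 139.6 against 52.5 to 78.6 CPM and Ercc1 at 86.5 against 33.6 to 46.9 CPM. Fap was at 38.5 CPM against 9.78 to 20.1 CPM in the others, Fbln2 at 295 against 186 to 226 CPM, Glp1r at 8.4 against 2.24 to 3.95 CPM and Mast4 at 30.6 against 19.6 to 24 CPM. Msln was at 127 CPM against 50.1 to 66.9 CPM in the others, mt-Nd2 at 1359.9 against 1000.2 to 1109.9 CPM, the fibroblasts list at 8036 against 4139 to 5199 CPM and the collagens and matrix list at 44580.0 against 16554 to 25135 CPM. The matrix metalloproteinases list was at 4569.8 CPM against 2708 to 3446 CPM in the others and the mesothelium list at 135 against 53.1 to 70.2 CPM.

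CT3_2 was the highest day 3 tumor in skin genes and 2 immediate early genes. Atf3 was at 14 CPM against 6.87 to 9.7 CPM in the others, Fosb at 56.4 against 5.89 to 17.8 CPM, Krt1 at 82.2 against 0 to 3.16 CPM and Krt10 at 129 against 1.58 to 16.1 CPM. Krt5 was at 176 CPM against 0.22 to 3.52 CPM in the others and the skin list at 1245 against 9.45 to 54.4 CPM.

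In CT3_6, the lowest day 3 tumor, C1qb was at 755 CPM against 982 to 1316 CPM in the others. In CT3_3, the lowest day 3 tumor, Cdh5 was at 50.2 CPM against 57.8 to 66.6 CPM in the others. In CT3_10, the lowest day 3 tumor, Fosl1 was at 33.3 CPM against 41 to 49.3 CPM in the others. In CT7_1, the lowest day 7 tumor, Irgm1 was at 766 CPM against 979 to 1215 CPM in the others. In CT7_3, the highest day 7 tumor, Krt1 was at 35.7 CPM against 0 to 0.815 CPM in the others. In CT7_3, the highest day 7 tumor, Krt10 was at 82.5 CPM against 1.24 to 2.53 CPM in the others. In CT7_2, the highest day 7 tumor, Lcn2 was at 384 CPM against 53.7 to 148 CPM in the others. In CT3_5, the lowest day 3 tumor, Mst1 was at 23.1 CPM against 28.5 to 31 CPM in the others. In CT3_9, the highest day 3 tumor, Nos2 was at 4.28 CPM against 2.92 to 3.36 CPM in the others. In CT3_6, the lowest day 3 tumor, the dendritic cells list was at 304 CPM against 381 to 478 CPM in the others.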

How the results depend on the processing

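Genes called higher and lower at day 7 stayed within 1.5 times of 5006 and 4994 under every alternative run. They were 4595 and 4658 with at least 1 CPM in 5 tumors and 5876 and 6170 with no filter. With total counts, an alternative added after the data were seen, they were 3594 and 6854, which moved the split between higher and lower. Leaving out each tumor in turn gave 4960 to 5111 higher, 4987 to 5085 lower, 8619 to 9114 called in CR and 8879 to 9280 in PR, and 0 to 1 for the CR to PR difference, for which DESeq2 called 6. With the title number as replicate block 4923 were higher and 4962 lower. Same-numbered tumors correlated best with their own number in 2 of 10 cases, so the numbers were taken as names. With total counts the sign changed to -0.0617 for Apaf1, -0.21 for C5ar1, -0.20 for Cd68, -0.15 for Csf1, -0.13 for Ercc4, -0.22 for Folr2, -0.037 for Ier2, -0.11 for Mertk and -0.15 for mt-Nd1, and the medians of endothelium and oxidative phosphorylation were -0.0399 and -0.052. Without the 6 tumors over 10 CPM of Krt5 the sign changed to -2.71 for Krt5, 0.061 for Fosb, 0.0765 for Fscn1, 0.0296 for Kdr and 0.00441 for Nr4a1. With limma-voom C5ar1 was at -0.10 and Folr2 at -0.000884. With skin and muscle covariates C5ar1 was at -0.0426 and Fos at 0.0513, with the replicate block C5ar1 was at -0.0249, with DESeq2 Krt1 was at 0.00493 and with time alone Dmkn was at -0.0332. Leaving out 1 tumor turned the sign of Krt1, C5ar1, Folr2 and Krt10, none called, with ranges of -4.23 to 1.96 for Krt1, the highest without CT3_2, -0.0463 to 0.141 for C5ar1, -0.0236 to 0.063 for Folr2 and -2.35 to 0.345 for Krt10, the highest without CT3_2. The cause of these shifts was not tested. At totals of 15412744 to 19446596 counts, genes near 1 CPM have few counts per tumor.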

Other observations

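Genes known from osteoclasts and other fused macrophages fell although macrophage genes as a group did not. These genes were chosen after their values were seen. Acp5, tartrate-resistant acid phosphatase, measured 695 to 2354 CPM at day 3 (median 1370.4) and 97.6 to 228 CPM at day 7 (median 114), a log2 fold change of -3.31 ± 0.24 (SE, edgeR FDR = 1.63e-10). Ctsk, cathepsin K, which digests collagen in bone, measured 1125 to 3814 CPM at day 3 (median 2000.1) and 192 to 469 CPM at day 7 (median 225), a log2 fold change of -2.94 ± 0.24 (SE, edgeR FDR = 7.87e-10). Calcr, the calcitonin receptor, measured 1.78 to 11 CPM at day 3 (median 4.8) and 0 to 0.633 CPM at day 7 (median 0.176), a log2 fold change of -4.76 ± 0.45 (SE, edgeR FDR = 6.98e-09). Atp6v0d2, a proton pump subunit, Ocstamp, needed for cell fusion, Oscar, a costimulatory receptor, and Nfatc1, the transcription factor of osteoclasts, fell by 2.16, 1.57, 2.99 and 0.76 on the log2 scale, as Mmp9 did in the report. Against them, Dcstamp, another fusion gene, and Itgb3, the beta 3 integrin, were higher, with log2 fold changes of 0.43 and 0.37. At Day-1 the medians of Acp5, Ctsk and Calcr were 567, 786 and 0.938 CPM.

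Some gene families moved wholly or mostly in 1 direction, again chosen after their values were seen, while others were split, such as the Cyp family with 14 higher and 14 lower and mitochondrial ribosomal proteins with 25 and 29. Over all tested genes 38.9% were higher and 38.8% lower. Homeobox genes of the Hox clusters, which set position along the body axis, were lower in 31 of 36 cases and higher in 0 (median -1.08), led by Hoxc10 from a median of 25.1 to 6.77 CPM (log2 fold change -1.85 ± 0.10 SE, edgeR FDR = 1.11e-12). All 9 Gimap-named genes (median 1.92), all 23 killer cell lectin-like receptors (median 2.22), and all 12 interferon-inducible Ifi200 genes (median 1.98) were higher. The Gimap names include GTPases of lymphocytes and Gimap1os, an opposite strand transcript. The killer cell receptors, Ifi200 and Gbp genes are close paralogs whose counts may be shared. Chemokine receptors were higher in 17 of 21 cases and lower in 3. Cx3cr1, the fractalkine receptor of patrolling monocytes and resident macrophages, fell from a median of 69.6 to 21.2 CPM (log2 fold change -1.50 ± 0.19 SE, edgeR FDR = 5.57e-07). Kinesin motors fell in 25 and rose in 9 of 34 cases, led by Kif18b of the mitotic spindle (-2.30), and Kif1a, a neuronal motor, had the largest rise among them (3.54).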
